A study of Rattus norvegicus with 6 samples.

Results

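The genes described here are the fibroblast growth factor (FGF) ligands Fgf1, Fgf2, Fgf18, Fgf21 and Fgf23 and the 4 FGF receptors Fgfr1, Fgfr2, Fgfr3 and Fgfr4. They were looked up by gene symbol. Of the 10 symbols searched, 9 were found among the 28293 genes of the deposited table, and Fgf16 is not analysed here. The set was selected on the sham and MI/RI values of these same samples, with Fgf23 the gene that drew attention to it, so the differences between the groups in these 9 genes are given as a description, with no test.

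RNA sequencing was performed on the myocardium of male wild-type rats, with 3 samples in the sham group and 3 samples in the myocardial ischemia/reperfusion injury (MI/RI) group, named I/R in the labels. In MI/RI the left anterior descending coronary artery was tied for 30 min under anesthesia, with the chest open and the lungs ventilated, and the tie was then released for 6 h before the heart was taken. The labels write both of these times for the sham samples too, and do not give strain or age. The study's methods describe sham-operated and MI/RI rats that both received vehicle (PBS) by tail vein, without saying that the sequenced animals were among them. No transgene or drug is named in the labels of either group.

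FGFs are signalling proteins that bind receptor tyrosine kinases on the cell surface. Paracrine members such as Fgf1, Fgf2 and Fgf18 are held near the cell that makes them by heparan sulphate, whereas the hormones Fgf21 and Fgf23 travel in the blood and need a Klotho protein beside the receptor. Fgf23 is known as a hormone of bone cells that lowers phosphate reabsorption in the kidney, and Fgf21 as a hormone of the liver in fasting and stress.

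Values are given in FPKM, the fragments of a gene divided by its length and by the size of the library. Differences are MI/RI minus sham on the log2(FPKM + 0.1) scale, which understates the change of low genes, with the standard error (SE) from limma. A gene was tested when its mean over the 6 samples was at least 0.5 FPKM, which left 10942 genes, and was called when its adjusted p was under 0.05. Of the 9 genes, Fgf1, Fgf18, Fgf23, Fgfr1 and Fgfr3 passed this filter and Fgf2, Fgf21, Fgfr2 and Fgfr4 did not. Fgf18 and Fgf23 passed it only through their MI/RI values. Low genes moved in whole steps of 1 fragment, so the number of fragments behind a low value could be read from it.

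The 6 libraries differed in more than FGF genes. The depth relative to sham 1 lay between 1 and 1.181 in sham and between 0.873 and 0.935 in MI/RI. The 13 mRNAs encoded by the mitochondrial genome took 80.1% to 86.2% of all FPKM in sham and 61.8% to 71.5% in MI/RI. Of 7 cardiomyocyte markers 6 were called higher in MI/RI (85.7%, beside 25.5% of all genes tested) and none was listed at 0. The summed level of the 7 was 3465 to 11364 FPKM in sham and 23353 to 33681 FPKM in MI/RI. Among all genes tested the median log2 difference was 0.29 with the FPKM as deposited. Rescaling each sample to a constant sum (TPM) gave 0.48, centring the samples on their medians gave 0.04 and quantile normalization gave -0.02. It was -0.46 when the mitochondrial mRNAs were left out of the total and -2.01 when each sample was centred on its cardiomyocyte markers. In bulk tissue, fewer cells of a type and less RNA per cell cannot be told apart. The labels number the samples without saying that each came from a separate rat, so the p-values measure the spread between these samples, which may be technical.

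Fgf23 was nearly undetected in sham and was the third most abundant of the 9 genes in MI/RI. It stood at 0.018 FPKM in sham 1, at 0 in sham 2 and at 0.111 FPKM in sham 3, which corresponded to 2, 0 and 14 fragments. In the MI/RI samples it stood at 5.19, 3.58 and 4.27 FPKM, from 502, 371 and 417 fragments. The groups did not overlap, and the lowest MI/RI sample lay far above the highest sham sample. The value of 0 in sham 2 allowed a level of up to 0.0229 FPKM, which is that of 3 fragments, counting error only. The mean rose from 0.0431 ± 0.0597 FPKM (SD, n = 3) in sham to 4.35 ± 0.808 FPKM (SD, n = 3) in MI/RI, a ratio of 101. This ratio rested on the few fragments of the sham group, since it was 482 without sham 3 and 67.2 without sham 2. The log2 difference was 5.02 (SE 0.37). It was positive in each of the scalings, from 5.32 after rescaling to TPM to 2.72 against the cardiomyocyte markers. It depended on the pseudocount, which is worth about 11.1 fragments of Fgf23 in sham 1, and was 2.35 with a pseudocount of 1 and 7.05 with 0.01. In sham Fgf23 lay above 0.1% of the genes tested, and in MI/RI above 58.8% of them. Its low place in sham follows largely from the filter, which it passed only through its MI/RI values. Nothing is read from this change of place.

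Fgf1, known as acidic FGF and a ligand of every FGF receptor, had the highest mean level of the 9 genes in both groups. It measured 13.7, 8.09 and 4.52 FPKM in the sham samples and 28.3, 19.2 and 21.8 FPKM in the MI/RI samples. All MI/RI samples were above all sham samples. The mean was 8.77 ± 4.62 FPKM (SD, n = 3) in sham and 23.1 ± 4.68 FPKM (SD, n = 3) in MI/RI, a ratio of 2.63 and a log2 difference of 1.51 (SE 0.37). Leaving out 1 sample at a time gave log2 differences from 1.11 to 1.90. The cardiomyocyte markers were also higher in MI/RI, with a mean log2 level of 8.44 ± 0.83 in sham and 10.7 ± 0.35 in MI/RI (SD, n = 3). Relative to these markers Fgf1 was lower in MI/RI than in sham, with a log2 difference of -0.79 in place of 1.51. The part of the change in cardiomyocyte RNA in the level of Fgf1 was not tested.

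Fgf18, a paracrine ligand known for its work in cartilage and bone, was at a trace level in sham. It measured 0.115, 0.0217 and 0.147 FPKM in the sham samples, from 9, 2 and 13 fragments. In the MI/RI samples it measured 1.03, 0.494 and 1.53 FPKM, from 70, 36 and 105 fragments. The groups did not overlap, but the MI/RI samples were spread widely, with MI/RI 3 highest and MI/RI 2 lowest. The mean was 0.0946 ± 0.0651 FPKM (SD, n = 3) in sham and 1.02 ± 0.517 FPKM (SD, n = 3) in MI/RI. The ratio of the means was 10.7, and 7.75 to 14.8 when 1 sample was left out. The log2 difference was 2.47 (SE 0.53), and 0.85 with a pseudocount of 1. Against the cardiomyocyte markers it was 0.17.

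Fgf21, a hormone of fasting and mitochondrial stress, was the only one of the 9 genes with every MI/RI sample below every sham sample. It measured 0.159, 0.17 and 0.261 FPKM in the sham samples, from 15, 19 and 28 fragments. In the MI/RI samples it measured 0.0243, 0 and 0.108 FPKM, from 2, 0 and 9 fragments. The total was 62 fragments in sham and 11 in MI/RI, so the level was low throughout and the gene did not pass the filter. The log2 difference was -1.10 (SE 0.32). The mean was 4.46-fold lower in MI/RI, and this value turned on single samples, being 16.2-fold without MI/RI 3 and 2.97-fold without MI/RI 2.

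Fgf2, the basic FGF, was close to the limit of detection in both groups. It measured 0.0719, 0.122 and 0.0316 FPKM in the sham samples and 0.0824, 0.173 and 0.326 FPKM in the MI/RI samples, from 14 fragments in sham and 29 in MI/RI in all. The groups overlapped, and the log2 difference was 0.69 (SE 0.37), or -1.60 against the cardiomyocyte markers.

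**Figure D1:**
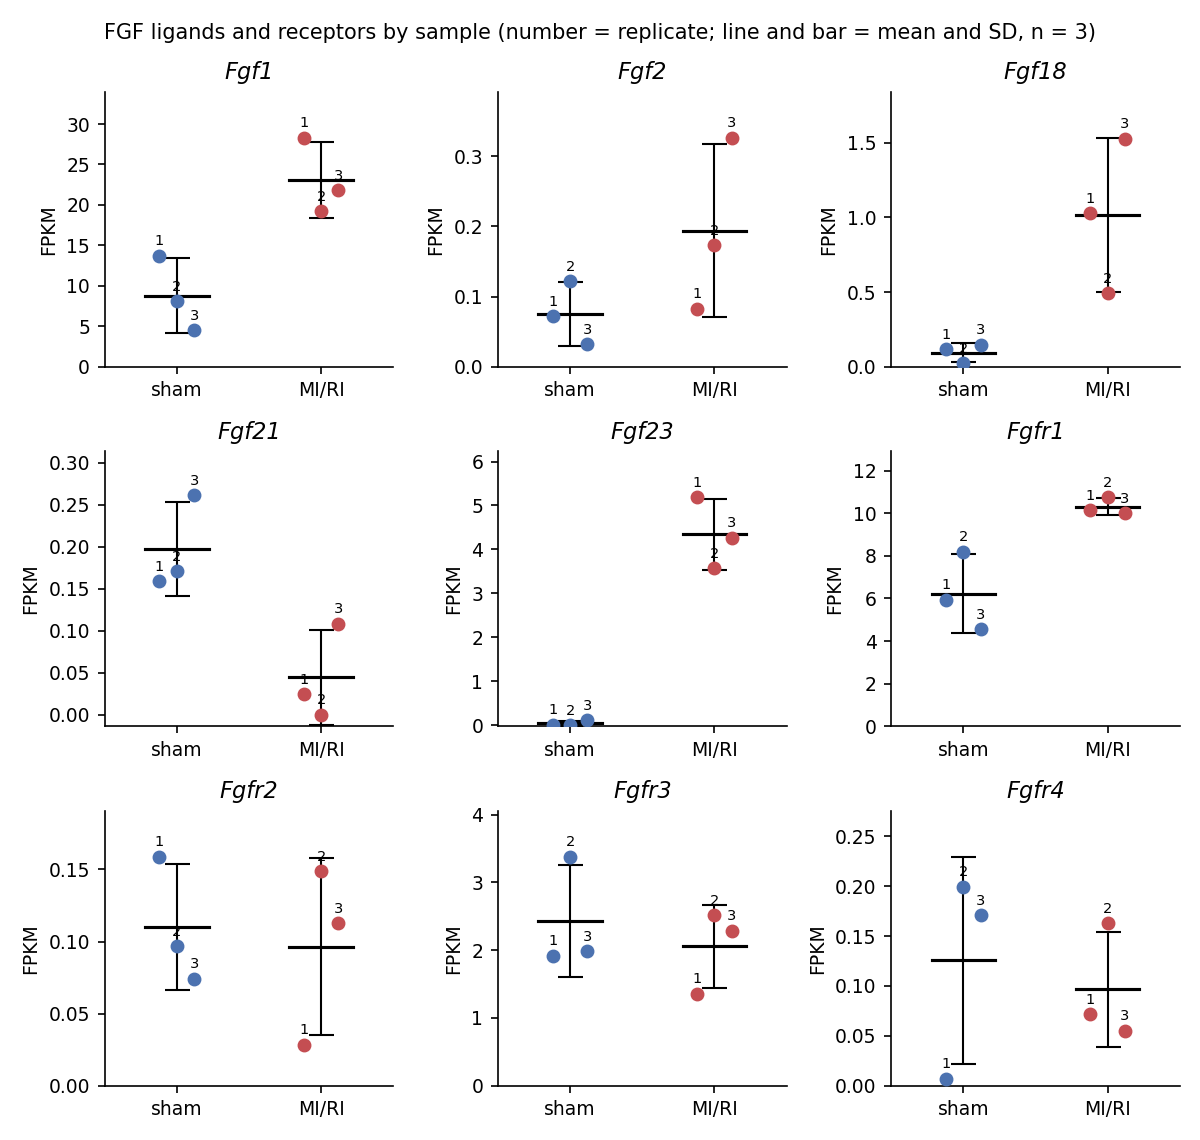
Level of each of the 9 FGF genes in FPKM (y axis, linear, a scale for each gene) in the 3 sham (blue) and 3 MI/RI (red) samples; each point is 1 sample with its replicate number, and the line and bar give the mean and SD. In FPKM as deposited, Fgf1, Fgf18, Fgf23 and Fgfr1 have every MI/RI sample above every sham sample (the direction of Fgf1 turns against the cardiomyocyte markers and that of Fgfr1 there and without the mitochondrial mRNAs), Fgf21 has every MI/RI sample below, and the other genes overlap.

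Fgfr1, the main FGF receptor of the adult heart, was the most abundant receptor in both groups. It measured 5.93, 8.2 and 4.55 FPKM in the sham samples and 10.1, 10.8 and 10 FPKM in the MI/RI samples. The MI/RI samples lay close together and all were above the sham samples. The mean was 6.23 ± 1.84 FPKM (SD, n = 3) in sham and 10.3 ± 0.396 FPKM (SD, n = 3) in MI/RI, a ratio of 1.65 and a log2 difference of 0.76 (SE 0.25). This direction depended on the scaling, since the log2 difference was -0.02 when the mitochondrial mRNAs were left out of the total and -1.54 against the cardiomyocyte markers.

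The other receptors overlapped between the groups. Fgfr3, known for restraining growth of long bones, measured 1.92, 3.38 and 1.98 FPKM in the sham samples and 1.36, 2.52 and 2.28 FPKM in the MI/RI samples, with a log2 difference of -0.23 (SE 0.31). Fgfr4, the receptor through which Fgf23 is known to act on cardiomyocytes without Klotho, measured 0.00693, 0.199 and 0.171 FPKM in the sham samples and 0.0714, 0.163 and 0.055 FPKM in the MI/RI samples. Its log2 difference was -0.10 (SE 0.44), and sham 1, with 1 fragment, stood apart from the other sham samples. Fgfr2, the receptor of the keratinocyte growth factors in its epithelial form, measured 0.159, 0.0967 and 0.0743 FPKM in the sham samples and 0.0284, 0.149 and 0.113 FPKM in the MI/RI samples. Its log2 difference was -0.13 (SE 0.31). With totals of 63 and 38 fragments for Fgfr4 and of 72 and 53 fragments for Fgfr2 in sham and MI/RI, a small difference was not detectable at this depth.

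Of the 9 genes, 4 had every MI/RI sample above every sham sample and 1 had every MI/RI sample below, beside 37.2% and 13% of the genes tested. Nothing is read from these counts, because the genes were selected on this contrast, and for the same reason no call is given for any of them.

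**Figure D2:**
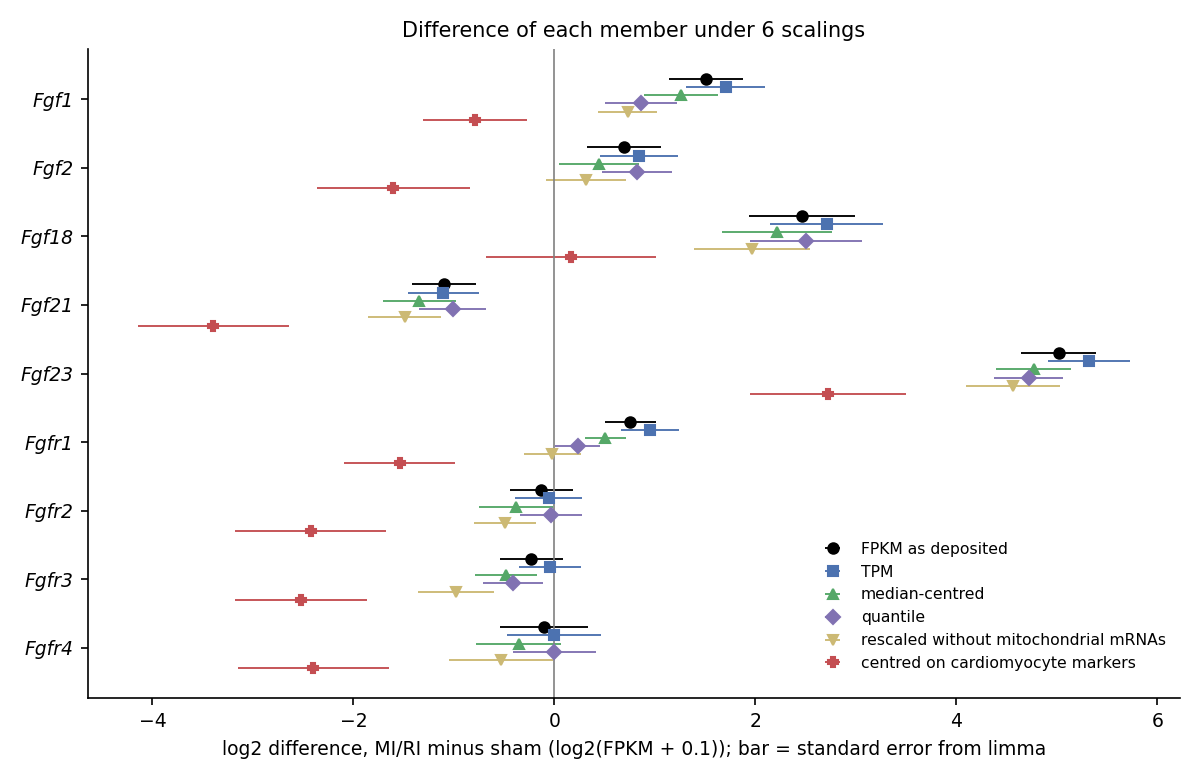
Log2 difference (x axis, MI/RI minus sham, log2(FPKM + 0.1)) of each of the 9 FGF genes under 6 scalings, with the SE from limma as a bar. Fgf23 lies right of 0 under every scaling, from 2.72 to 5.32, whereas Fgf1 moves from 1.51 to -0.79 when centred on the cardiomyocyte markers and Fgfr1 from 0.76 to -0.02 without the mitochondrial mRNAs and to -1.54 against the markers.

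Levels in FPKM are per length, so the 9 genes could be ranked. In sham the order was Fgf1, Fgfr1, Fgfr3, Fgf21, Fgfr4, Fgfr2, Fgf18, Fgf2 and Fgf23. Fgf1 and Fgfr1 overlapped, Fgfr1 did not overlap Fgfr3, Fgfr3 did not overlap Fgf21, and from Fgf21 down each gene overlapped the next. In MI/RI the order was Fgf1, Fgfr1, Fgf23, Fgfr3, Fgf18, Fgf2, Fgfr2, Fgfr4 and Fgf21. The levels of Fgf1, Fgfr1 and Fgf23 did not overlap with the next in this order, Fgfr3 and Fgf18 overlapped, Fgf18 did not overlap Fgf2, and the genes from Fgf2 down overlapped.

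The make-up of the ligands and of the receptors within a sample does not depend on the total by which a library is divided. The summed level of 17 secreted ligands was 15.5, 9.59 and 6.52 FPKM in the sham samples and 37, 25 and 29.8 FPKM in the MI/RI samples. Fgf1 made up 80.8% ± 10.1 of it in sham and 75.4% ± 1.99 in MI/RI (SD, n = 3), so it was the main ligand in each sample. Fgf23 made up 0.608% ± 0.954 in sham and 14.2% ± 0.167 in MI/RI (SD, n = 3), with 14.0%, 14.3% and 14.3% in the MI/RI samples. The ratio of Fgf23 to Fgf1 was 0.00132, 0 and 0.0246 in the sham samples and 0.183, 0.186 and 0.196 in the MI/RI samples, so the 2 ligands kept nearly the same proportion in the 3 MI/RI samples.

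Among the 4 receptors the summed level was 8.02, 11.9 and 6.77 FPKM in the sham samples and 11.6, 13.6 and 12.5 FPKM in the MI/RI samples. Fgfr1 made up 70.1% ± 3.54 in sham and 82.3% ± 4.47 in MI/RI, and Fgfr3 27.2% ± 2.87 and 16.2% ± 3.88 (SD, n = 3). The ratio of Fgfr1 to Fgfr3 was 3.09, 2.43 and 2.29 in the sham samples and 7.46, 4.27 and 4.38 in the MI/RI samples, with no overlap. The ratio of ligand Fgf1 to receptor Fgfr1 was 2.31, 0.987 and 0.995 in the sham samples and 2.79, 1.79 and 2.18 in the MI/RI samples, which overlapped through sham 1.

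**Figure D3:**
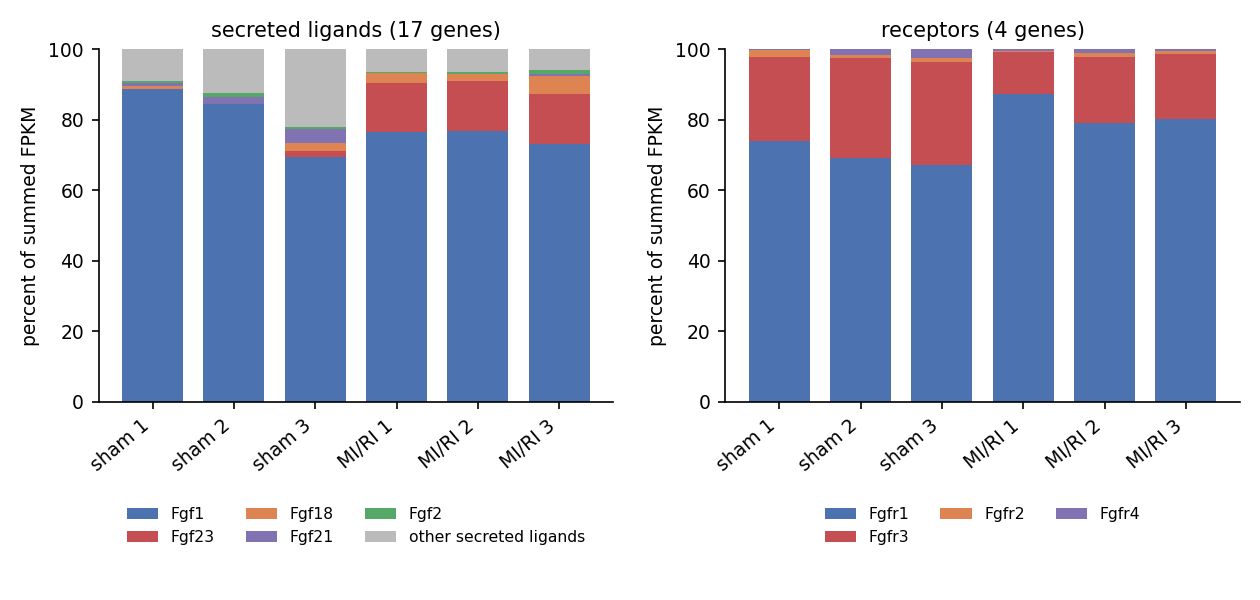
Share of each gene (y axis, percent of summed FPKM) among 17 secreted FGF ligands (left) and 4 FGF receptors (right) in each of the 6 samples (x axis). The Fgf23 segment is 14.0% to 14.3% of the ligands in the 3 MI/RI samples, and Fgfr1 takes 70.1% of the receptors on average in sham and 82.3% in MI/RI.

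The promoters of Fgf21 and Fgf18 are shown because these ligands had low levels with no overlap between the groups, one lower and the other higher in MI/RI. They are the 250 bases before the transcription start, from RefSeq with build GRCr8, on the minus strand in both cases, at chr1:105221377-105221626 for Fgf21 and at chr10:18240883-18241132 for Fgf18. Of the 10 symbols searched, 8 were matched in the promoter table, and Fgf23 and Fgfr1 were not. Capitals mark matches to a motif.
Fgf21: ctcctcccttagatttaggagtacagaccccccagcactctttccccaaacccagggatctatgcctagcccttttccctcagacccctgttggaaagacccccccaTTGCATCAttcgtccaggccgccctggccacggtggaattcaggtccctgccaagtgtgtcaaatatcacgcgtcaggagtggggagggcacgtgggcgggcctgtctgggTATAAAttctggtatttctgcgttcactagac
Fgf18: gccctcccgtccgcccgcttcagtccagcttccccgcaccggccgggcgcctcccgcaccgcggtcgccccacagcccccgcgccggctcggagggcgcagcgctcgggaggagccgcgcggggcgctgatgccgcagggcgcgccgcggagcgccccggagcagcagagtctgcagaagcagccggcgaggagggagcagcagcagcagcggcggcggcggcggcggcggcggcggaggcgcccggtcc
The motifs searched on both strands were the composite element of ATF4 and C/EBP (TGATGNAA), the AP-1 site (TGANTCA) and the TATA box (TATAAA), none of which overlaps another here. Fgf21 held the composite element on the opposite strand, 143 to 136 bases before the start, and a TATA box 32 to 27 bases before the start. Fgf18 held none of them in this window. In the same 250 bases of 33469 promoters, 3.4% held the composite element, 6.34% the AP-1 site and 12.9% the TATA box. The matches are a description of letters, chosen with the sequences known.

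ATF4, the stress factor that binds the composite element and is known to raise Fgf21, was called higher in MI/RI while Fgf21 was lower. Atf4 measured 40.6, 44.1 and 48.9 FPKM in the sham samples and 98.3, 140 and 90.6 FPKM in the MI/RI samples, a log2 difference of 1.28 (SE 0.25, limma adjusted p = 0.00609). Its call was lost after quantile normalization and when the mitochondrial mRNAs were left out, and its direction turned to -1.02 against the cardiomyocyte markers. Ddit3, a stress factor induced by ATF4, differed by 0.55 (limma adjusted p = 0.123), and Ppara, the fatty acid sensor that drives hepatic Fgf21, by 0.04 (limma adjusted p = 0.949).

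The wider FGF pathway was read from 8 lists of genes by role, without the genes above. Of 81 genes, 79 were found, 46 were tested, 16 were called higher (34.8%), 3 lower (6.52%) and 27 were not called, beside 25.5% of all genes tested called higher, 7.36% called lower and 32.9% called in either direction. Their median log2 difference was 0.49, beside 0.29 for all genes tested. The numbers higher and lower were 17 and 1 with the replicate number as a block, and 6 and 11 when the mitochondrial mRNAs were left out of the total.

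The list of feedback inhibitors of the receptor pathway and of its target transcription factors, which FGF signalling is known to induce, held 8 tested genes of 12. Of these 3 were called higher (37.5%, beside 25.5% of all genes tested) and 0 lower. The median log2 difference was 0.61. Spry4, a Sprouty inhibitor of the Ras and ERK cascade, measured 0.824, 0.667 and 0.312 FPKM in the sham samples and 6.99, 6.72 and 3.87 FPKM in the MI/RI samples. It rose 9.75-fold in the means, with a log2 difference of 3.12 (SE 0.35, limma adjusted p = 0.00113). Spry2 rose by 1.47 on the log2 scale (SE 0.25, limma adjusted p = 0.00388), from 1.46 ± 0.319 to 4.20 ± 0.658 FPKM (SD, n = 3). Dusp6, the phosphatase that removes phosphate from ERK, rose by 1.15 (SE 0.26, limma adjusted p = 0.0109), from 1.58 ± 0.447 to 3.57 ± 0.525 FPKM (SD, n = 3). The calls of Spry2 and Dusp6 were lost when the mitochondrial mRNAs were left out, and against the cardiomyocyte markers they turned to -0.82 and -1.15. Spry4 lost its call against these markers alone.

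The other tested members of this list were not called. Spry1 differed by 0.56 (limma adjusted p = 0.153), Spred2 by 0.60 (0.136) and Spred1 by 0.05 (0.90), all of them inhibitors of the same cascade. Of the Ets factors known as FGF targets, Etv5 differed by 0.61 (limma adjusted p = 0.169) and Etv1 by -0.72 (0.152). Every MI/RI sample was above every sham sample in Spry1, Spred2 and Etv5 and below in Etv1. Of all genes tested, 37.2% were above and 13% below in this way. Spry3, Spred3, Il17rd and Etv4 were under the filter.

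The co-receptors that the hormones need were close to 0. Kl, which encodes the Klotho that makes a receptor for Fgf23, had 5, 2 and 2 fragments in the sham samples and 1, 0 and 0 in the MI/RI samples. Klb, the co-receptor of Fgf21, had 0, 9 and 10 fragments in sham and 4, 1 and 0 in MI/RI. Of the other binding proteins Fgfrl1, a receptor without a kinase domain, was called higher, from 0.414 ± 0.0621 to 0.937 ± 0.25 FPKM (SD, n = 3), with a log2 difference of 0.99 (SE 0.33, limma adjusted p = 0.0444). This call was lost without any 1 of the 6 samples, with an adjusted p of up to 0.135, and the direction turned to -1.31 against the cardiomyocyte markers. Fgfbp3, which releases FGFs from the matrix, differed by -0.14 (limma adjusted p = 0.789). Flrt2 and Flrt3, membrane proteins that bind FGF receptors, were under the filter, and Fgfbp1 was listed at 0 in each sample.

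Heparan sulphate genes, whose sugar chains hold FGFs on the receptor, held 14 tested genes, with 4 called higher (28.6%, close to the 25.5% of all genes tested), 0 lower and a median log2 difference of 0.31. Sdc4, a syndecan core protein, measured 3.13, 1.71 and 1.96 FPKM in the sham samples and 10.6, 16.5 and 13.6 FPKM in the MI/RI samples, a log2 difference of 2.55 (SE 0.28, limma adjusted p = 0.00105). Gpc1, a glypican core protein, differed by 2.25 (SE 0.53, limma adjusted p = 0.0119), with MI/RI 1 at 59.9 FPKM far above MI/RI 2 and MI/RI 3 at 17.9 and 17.5 FPKM. Without sham 2 its adjusted p was 0.054. Sdc3 differed by 1.88 (SE 0.39, limma adjusted p = 0.00769). Ext1, an enzyme that builds the chains, is named after its values were seen and differed by 1.18 (SE 0.23, limma adjusted p = 0.00656). Against the cardiomyocyte markers Gpc1, Sdc3 and Ext1 turned to -0.05, -0.41 and -1.12. The enzymes that trim or cut the chains, Sulf1, Sulf2 and Hpse, were not called, with log2 differences of -0.18, 0.61 and -0.57.

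The intracellular FGF homologous factors share the FGF fold but bind sodium channels in place of receptors. Of the 4 genes 2 were tested and both were called higher, beside 25.5% of all genes tested. Fgf11 and Fgf14 were under the filter and had log2 differences of -0.94 and -0.40. Fgf11 measured 0.13, 0.11 and 0.097 FPKM in the sham samples and 0.0344, 0 and 0 FPKM in the MI/RI samples. Fgf12 measured 1.88, 0.579 and 0.83 FPKM in the sham samples and 6.68, 2.90 and 3.46 FPKM in the MI/RI samples, a log2 difference of 1.95 (SE 0.42, limma adjusted p = 0.00891). Fgf13 measured 0.549, 0.361 and 0.326 FPKM in the sham samples and 2.84, 1.45 and 1.51 FPKM in the MI/RI samples, a log2 difference of 1.95 (SE 0.34, limma adjusted p = 0.00447). In both genes sham 1 was the highest sham sample and MI/RI 1 the highest MI/RI sample, as they were for Fgf1 and for the mean of the cardiomyocyte markers. The same samples were highest for other genes of the lists, among them Gpc1, Spry4 and Fgfrl1. Against the cardiomyocyte markers Fgf12 and Fgf13 both turned to -0.35. The part of the change in cardiomyocyte RNA in their levels was not tested.

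Of 12 other secreted ligands found, Fgf22 alone passed the filter and was not called, with a log2 difference of 0.38 (limma adjusted p = 0.405), and 5 were listed at 0 in each sample. Fgf9, which was under the filter and is named after its values were seen, had no overlap, with 0.205, 0.0696 and 0.103 FPKM in the sham samples and 0.908, 0.27 and 0.306 FPKM in the MI/RI samples. The adaptors that carry the signal from the receptor held 11 tested genes, with 3 called higher and 3 lower (27.3% each, beside 25.5% and 7.36% of all genes tested) and a median log2 difference of -0.02. Grb2, Crk and Ptpn11 differed by 1.08, 1.04 and 0.87 (limma adjusted p = 0.008, 0.0364 and 0.0341). They were not called after quantile normalization or without the mitochondrial mRNAs, and turned to -1.22, -1.26 and -1.43 against the cardiomyocyte markers. The calls that were lower, named after their values were seen, were Frs3, Plcg1 and Gab1, with log2 differences of -0.79, -0.79 and -0.69 (limma adjusted p = 0.046, 0.0369 and 0.0379). With the replicate block Frs3 and Gab1 were no longer called (adjusted p = 0.0618 and 0.0534). Leaving out 1 sample ended the call of Gab1 and of Fgfrl1 for each of the 6 samples, of Crk for each but sham 2, of Frs3 for each but MI/RI 1, of Plcg1 for each but sham 1, and of Ptpn11 for sham 1, sham 3, MI/RI 1 and MI/RI 2, with an adjusted p of up to 0.137 for Frs3.

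**Figure D4:**
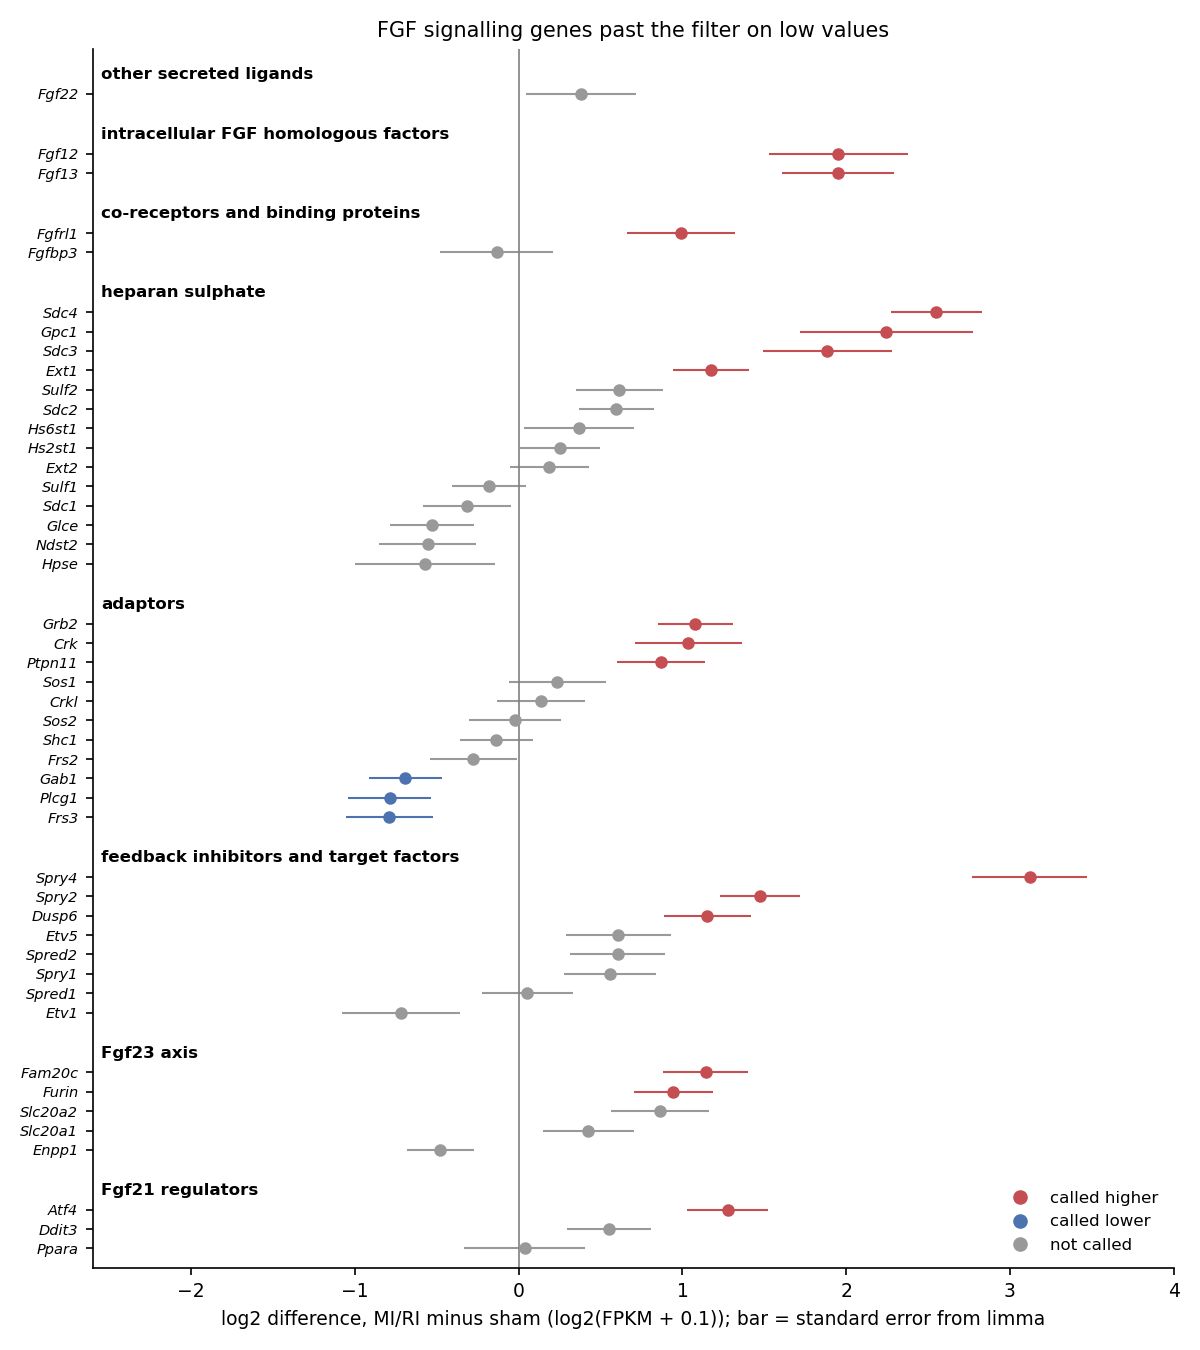
Log2 difference (x axis, MI/RI minus sham, log2(FPKM + 0.1)) of the 46 tested FGF signalling genes by list, with the SE from limma as a bar; red genes were called higher, blue lower and grey not called. Spry4 lies farthest right at 3.12, and 16 genes are red and 3 blue with FPKM as deposited, against 6 higher and 11 lower when the mitochondrial mRNAs were left out.

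Genes that make, process or answer to Fgf23 were mostly low in these samples. Of 14 such genes 5 were tested, with 2 called higher (40%, beside 25.5% of all genes tested) and 0 lower (beside 7.36%). Fam20c, the kinase that marks Fgf23 for cleavage, rose from 2.83 ± 0.545 to 6.44 ± 1.84 FPKM (SD, n = 3), with a log2 difference of 1.14 (SE 0.26, limma adjusted p = 0.0108). Furin, the protease that cuts Fgf23, rose from 5.05 ± 1.08 to 9.69 ± 1.09 FPKM (SD, n = 3), with a log2 difference of 0.94 (SE 0.24, limma adjusted p = 0.0158), and without sham 3 its adjusted p was 0.0711. Both calls were lost when the mitochondrial mRNAs were left out, with log2 differences of 0.37 for Fam20c and 0.17 for Furin, and that of Furin also after quantile normalization. Both turned against the cardiomyocyte markers, to -1.16 for Fam20c and -1.35 for Furin. Galnt3, which protects Fgf23 from that cut, had mean levels of 0.0201 FPKM in sham and 0.0217 FPKM in MI/RI. Slc20a2, a phosphate carrier, differed by 0.86 and was not called (limma adjusted p = 0.0508), but was called with the replicate block (adjusted p = 0.0257). The difference of Slc20a2 was 0.09 without the mitochondrial mRNAs and -1.44 against the cardiomyocyte markers, and its adjusted p reached 0.187 when 1 sample was left out. Cyp24a1 and Slc34a1, kidney genes that answer to Fgf23, were listed at 0 in each sample.

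Markers of osteoblasts and osteocytes, the cells best known for Fgf23, were measured beside it. All 7 were under the filter, Sp7 was listed at 0 in each sample, and the mean levels of Sost, Phex and Mepe were at most 0.0322 FPKM. The mean of Dmp1 was 0.545 FPKM in sham and 0.296 FPKM in MI/RI. That of Ibsp was 0.229 and 0 FPKM, and that of Bglap 0.0786 and 0.175 FPKM. The summed level of the 7 was 0.533 to 1.08 FPKM in sham and 0.144 to 0.762 FPKM in MI/RI. The 2 highest sums were those of sham 1 and sham 2. Of 6 markers of neutrophils and monocytes 3 were tested and 2, S100a8 and S100a9, were called higher (66.7%, beside 25.5% of all genes tested). The summed level of all 6 was 13.5 to 17.8 FPKM in sham and 28.1 to 82.4 FPKM in MI/RI. Among the MI/RI samples it was lowest in MI/RI 1, in which Fgf23 was highest. Of 7 fibroblast markers 2 were called higher (28.6%, close to the 25.5% of all genes tested) and 0 lower. Their log2 differences ran from -0.36 for Pdgfra to 1.42 for Tcf21. The fibroblast sums were 420 to 581 FPKM in sham and 605 to 669 FPKM in MI/RI. Of 5 endothelial and 4 smooth muscle markers none was called, beside 32.9% of all genes tested called in either direction. The endothelial sums were 99.4 to 142 FPKM in sham and 114 to 149 FPKM in MI/RI. The smooth muscle sums were 57.3 to 252 FPKM in sham and 79.4 to 285 FPKM in MI/RI. No marker of the fibroblast, endothelial, smooth muscle or neutrophil and monocyte lists was at 0 in each sample. The part of any cell type in the level of Fgf23 was not tested.

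The 5 tested genes with the profile nearest to that of Fgf23 were found by the Euclidean distance between log2(FPKM + 0.1) values, each gene centred on its own mean over the 6 samples. The second to the fifth nearest are reported and were Cxcl2, a chemokine for neutrophils (distance 1.46), Thbs1, a matricellular protein (1.51), Egr1, an immediate early transcription factor (1.57), and Atf3, a stress-induced transcription factor (1.58). Cxcl2, like Fgf23, was near 0 in sham, at 0.0442, 0 and 0.117 FPKM, and measured 6.23, 11.5 and 8.57 FPKM in the MI/RI samples. In Fgf23 the highest MI/RI sample was MI/RI 1, which was the lowest for Cxcl2. The distance is a description over 6 samples that share 1 contrast, chosen for likeness.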

How the data were processed

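Total RNA of 3 sham and 3 MI/RI samples was sequenced from libraries made, per the labels, with a stranded total RNA kit. The authors deposited 1 table of FPKM values, with 30452 rows. The submitters' processing notes name STAR and HTSeq, without versions. The genome build, the annotation and the total behind the FPKM are not given in the sources used here. Each of the 6 columns was matched to its sample by name, and rows of one symbol were summed. Fragments were read from the steps of low values, which were whole within 0.02 for 98.1% of 2536 low genes; summed FPKM was 894902 to 928941 in sham and 731063 to 825490 in MI/RI.

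Log2(FPKM + 0.1) was fitted with limma 3.58.1 in R 4.3.3 (lmFit, eBayes with trend) over 10942 genes with a mean of at least 0.5 FPKM, with Benjamini-Hochberg adjustment over all of them and a threshold of 0.05. Genes under the filter were given the difference of a fit without it. The fit was tested on simulated data. FPKM are no counts, so no count model was used.

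The genes, lists and motifs were chosen with earlier results of these data known. Named genes were the FGF ligands and receptors, all feedback inhibitors and co-receptors, up to 3 called genes with the largest absolute difference of each other list, and the 5 genes nearest in profile to Fgf23. Counts cover all tested genes of each list. Of the genes listed, Fgf15 and Hspg2 are not analysed here, and the gene nearest of all in profile to Fgf23 is not reported here.

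Samples share replicate numbers in the labels. Deviations from the group means correlated at 0.203, 0.117 and 0.118 between same-numbered samples, each over a limit of 0.1. Since sham 3 with MI/RI 2 also reached 0.12, the correlations cannot tell whether the numbers mark pairs. Neither the labels nor the methods say what a number marks. The reported fit has no block, so its p-values leave out any pairing, and the block is among the alternatives.

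Alternatives were pseudocounts of 1 and 0.01, no filter or a filter at 5 FPKM, the scalings in the text, limma without the trend, the block, the highest row of each symbol and leaving out each sample.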

Additional observations from a re-analysis of the deposited data

How the results depend on the processing

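With FPKM as deposited 2790 genes were higher and 805 lower in MI/RI, as were 16 and 3 of the FGF signalling genes. Without a filter, 1 FGF signalling gene was lower. With a filter at 5 FPKM, which tests fewer genes, 166 genes were lower, and 8 FGF signalling genes were higher and 1 lower. After rescaling to TPM 504 genes were lower, with 0 FGF signalling genes among them. After centring on the median 1554 genes and 5 FGF signalling genes were lower. Quantile normalization gave 1441 genes higher and 1559 lower, with 5 FGF signalling genes lower. Leaving the mitochondrial mRNAs out of the total gave 793 higher and 2857 lower, with 6 and 11 FGF signalling genes. Centring on the cardiomyocyte markers gave 35 higher and 8977 lower, with 0 and 34 FGF signalling genes. Higher genes were thus 77.6% of the calls as deposited, and 87.3%, 56.5%, 48.0%, 21.7% and 0.4% under these 5 scalings; the cause was not tested beyond the shift of the median.

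Leaving out each sample gave 1526 to 2567 genes higher, the lowest without sham 3, and 305 to 880 lower, the lowest without sham 2, against 348 without sham 3. FGF signalling genes were 12 to 14 higher and 0 to 1 lower. With the replicate block 3085 genes were higher and 895 lower, with 17 and 1 FGF signalling genes, and it changed no call of a signalling gene other than those of Frs3, Gab1 and Slc20a2.

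The log2 difference of Fgf23 was 5.02, 2.35 and 7.05 with pseudocounts of 0.1, 1 and 0.01, 4.57 without the mitochondrial mRNAs, 2.72 against the cardiomyocyte markers, and 4.80 to 5.34 when 1 sample was left out. Against the cardiomyocyte markers the direction was turned for genes not called or not tested, among them Fgf2 (-1.60) and Slc20a2 (-1.44), and for Fgf1 (-0.79), Fgfr1 (-1.54), Fgf12 and Fgf13 (-0.35 each), Fgfrl1 (-1.31), Sdc3 (-0.41), Gpc1 (-0.0513), Ext1 (-1.12), Grb2 (-1.22), Ptpn11 (-1.43), Crk (-1.26), Spry2 (-0.82), Dusp6 (-1.15), Fam20c (-1.16), Furin (-1.35) and Atf4 (-1.02), and for Fgfr1 without the mitochondrial mRNAs (-0.0182). Of 19 signalling genes called, 5 (Fgf12, Fgf13, Sdc3, Sdc4 and Spry4) lost their call under no alternative other than the cardiomyocyte centring, and 14 lost it under more. Depth limits the values of Fgf2, Fgf21, Fgfr2 and Fgfr4, which rest on few fragments.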
